A study of Mus musculus with 36 samples.

Results

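The response of Mfn2-/- mouse embryonic fibroblasts (MEFs) to adipogenic differentiation was set against the response of wild-type (WT) MEFs, gene by gene. The quantity followed throughout is the difference in response, which is the log2 change from day -2 to day +8 in Mfn2-/- MEFs minus the same change in WT MEFs. Its samples were taken by their labels alone: 3 Mfn2-/- and 3 WT libraries at day -2 and the same numbers at day +8, 12 of the 36 libraries in the series. A value above 0 means that the change in Mfn2-/- MEFs was the more positive of the pair, and a value below 0 that it was the more negative, whichever way each line moved.

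Mfn2 encodes mitofusin 2, a GTPase of the outer mitochondrial membrane that is needed for mitochondria to fuse and that also sits at contacts between mitochondria and the endoplasmic reticulum. Confluent fibroblasts given a glucocorticoid, an agent that raises cyclic AMP, insulin and a PPARγ agonist can turn into adipocytes. In that programme C/EBPβ and C/EBPδ act early, PPARγ and C/EBPα follow and maintain each other, and genes for lipid uptake, triglyceride storage and insulin-driven glucose entry come on last, while the cells leave the cell cycle.

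The cells were the Mfn2-/- and WT MEF lines derived by Chen and colleagues and obtained from ATCC, 1 line per genotype. Both lines went through the same protocol: growth to confluence (day -2), then a cocktail of pantothenic acid, biotin, rosiglitazone (a PPARγ agonist), IBMX (a phosphodiesterase inhibitor), dexamethasone and insulin, with all but IBMX and dexamethasone repeated until day +8. Poly(A) RNA was sequenced from 3 cultures per group, which the submitters describe as independent biological replicates. Set against counting error, which gives about 1, chi-square per gene between libraries of a group ran from 1.42 to 9.23. The lowest was WT libraries D and E at day -2 and the highest WT libraries E and F at day +8. How far the cultures were independent was not tested. Because each genotype is 1 line, loss of Mfn2 and other differences between the lines cannot be told apart, and p-values measure only the spread between cultures of those lines.

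The 12 libraries held between 8800674 and 11212699 assigned reads (median 9835967.5), and 13185 genes passed the filter on low values. Levels are given as normalized counts, which are reads divided by 1 factor per library. The targeted gene matched the labels: Mfn2 stood at 902, 955 and 968 normalized counts in WT libraries D, E and F at day -2 and at 899, 872 and 958 at day +8, against 212, 230.1 and 236 and 193, 214 and 285 in the Mfn2-/- libraries. Mfn2 did not pass the test for a difference in response (0.06, SE 0.15, adjusted p = 0.738), nor did its paralogue Mfn1 (0.14, SE 0.09, adjusted p = 0.218). WT library F at day +8 stood above libraries D and E for adipocyte genes, so those results were also computed without it. The counts then stood at 4 of 5 adipocyte markers, 10 of 20 adipogenic transcription factors, 14 of 22 triglyceride genes and 12 of 22 fatty acid oxidation genes lower, against 5, 12, 15 and 14 with it. Markers of other cell types differed between the lines. Over 9 mesothelium genes the summed level was 35239 to 39398 normalized counts in Mfn2-/- and 1346 to 1423 in WT MEFs at day -2. At day +8 it was 14412 to 15160 in Mfn2-/- and 656.9 to 811.8 in WT MEFs. The 11 fibroblast genes summed to 31078 to 33534 in Mfn2-/- against 164017 to 179599 in WT MEFs before differentiation, and to 38865 to 39999 against 239301 to 268500 on day +8. The part of such markers in the results was not tested, and in bulk RNA fewer cells of a type and less RNA per cell cannot be told apart.

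Of the 13185 genes, 5382 differed in response at an adjusted p under 0.01 in limma, 2743 higher in Mfn2-/- MEFs (20.8% of genes tested) and 2639 lower (20.0%). Each line responded broadly. In WT MEFs 3251 genes rose (24.7%) and 3455 fell (26.2%) between day -2 and day +8, and in Mfn2-/- MEFs 2831 rose (21.5%) and 2839 fell (21.5%). The WT response was the wider, with an SD over genes of 1.04 on the log2 scale against 0.766 in Mfn2-/- MEFs. Direction differed as well as size: of 3430 genes that passed in both lines, 2322 moved the same way and 1108 moved in opposite directions. Across genes the responses had a Pearson r of 0.27, which describes genes within these libraries and has no test because genes are not independent.

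**Figure D1:**
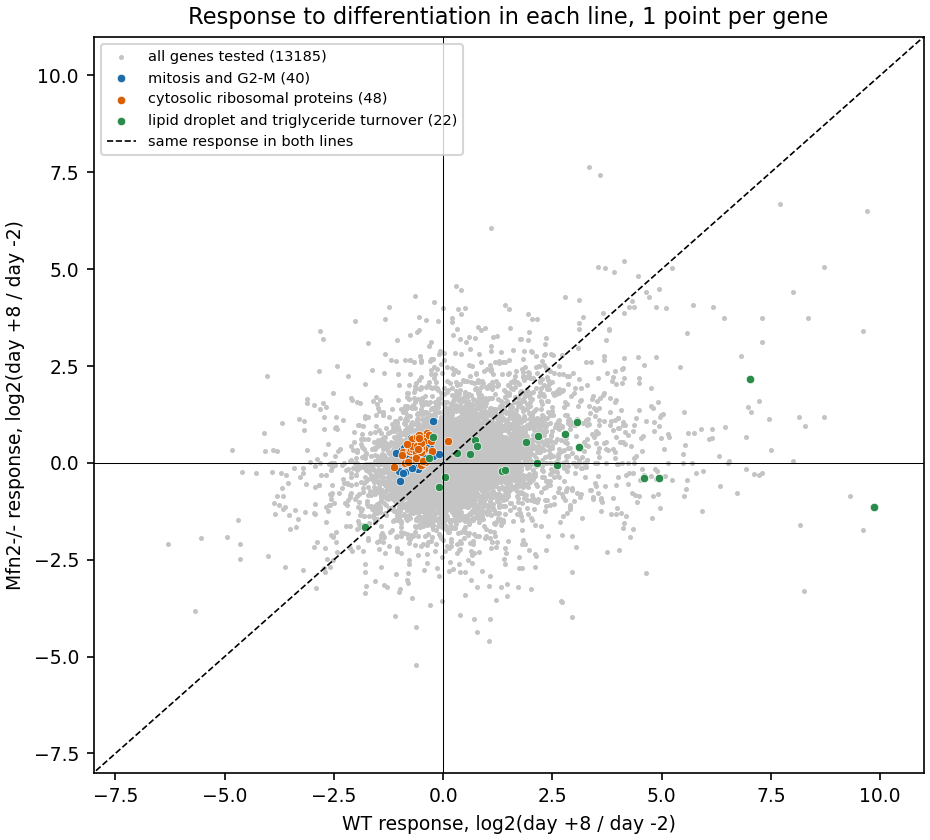
Log2 change from day -2 to day +8 in WT MEFs (horizontal axis) against the log2 change in Mfn2-/- MEFs (vertical axis), with 1 point per gene tested and 3 gene lists in colour. Points above the diagonal have a higher response in Mfn2-/- MEFs; of 3430 genes that passed in both lines, 1108 lie in the quadrants where the lines moved in opposite directions.

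Lower differences came mostly from WT inductions. Of the 2639 genes with a lower difference, 1016 rose in WT and did not pass in Mfn2-/- MEFs, 472 rose in WT and fell in Mfn2-/- MEFs, 250 rose in both and 683 passed only as a fall in Mfn2-/- MEFs. Of the 2743 genes with a higher difference, 1025 fell in WT only, 636 fell in WT and rose in Mfn2-/- MEFs, and 636 passed only as a rise in Mfn2-/- MEFs. Of the WT inductions, 153 genes rose by over 4 on the log2 scale in WT MEFs, 135 of them had a lower difference, and 53 of them rose and 12 fell in Mfn2-/- MEFs. In Mfn2-/- MEFs 31 genes rose by over 4, of which 25 also rose in WT.

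The same differences can be read by day. Among the 2639 lower genes, 742 were lower in Mfn2-/- than in WT MEFs at day +8 only, 631 were higher in Mfn2-/- MEFs at day -2 only, and 394 passed from higher at day -2 to lower at day +8. Among the 2743 higher genes, 813 were higher at day +8 only, 634 were lower at day -2 only, and 448 passed from lower to higher. A difference in response therefore often included a gap that was already present before the cocktail was given.

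The adipocyte marker list had the lowest median difference of the lists tested. Of 5 adipocyte marker genes tested, all rose in WT MEFs and all had a lower difference, with a median of -4.997 against -0.0071 over all genes. Their summed level rose from 162.5 to 176.6 normalized counts in the WT libraries at day -2 to between 13935 and 28646 at day +8. In Mfn2-/- MEFs it was 396.3 to 461.6 at day -2 and 545.8 to 635.0 at day +8, so the day +8 ranges of the lines did not come near each other. Other marker genes of adipocytes, Adipoq and Plin1 among them, were not analysed here.

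Among 20 adipogenic transcription factors tested, 12 had a lower and 1 a higher difference (median -0.90), 16 rose in WT and 9 rose in Mfn2-/- MEFs. The higher one was Stat5b (1.04), a mediator of growth hormone and prolactin signals. Cebpa, which encodes C/EBPα, stood at 8.76, 10.7 and 5.43 normalized counts in WT libraries at day -2 and 996, 838 and 1728 at day +8. In Mfn2-/- libraries it stood at 67.004, 90.6 and 77.6 and 207, 203 and 229.8. Cebpa thus rose in both lines, by 6.97 in WT and 1.44 in Mfn2-/- MEFs on the log2 scale, from a higher start and to a lower end in the latter (difference -5.53, SE 0.35, adjusted p = 2.93e-09). Pparg, the nuclear receptor that rosiglitazone binds, had 202 reads over the WT libraries at day -2 and 960 at day +8, but 0 and 1 over the Mfn2-/- libraries. WT MEFs were thus at least 65.7-fold higher at day -2, set against a floor of 3 reads over the group, and 931-fold higher at day +8 (95% counting interval 167 to 36810). The fitted difference for Pparg (-1.84, adjusted p = 0.0026) depends on the pseudocount at so few reads, and its call was lost without WT library F at day +8 (adjusted p = 0.0169).

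The early factors were compared at day -2 and day +8 only. Their levels in the first days after the cocktail were not measured in Mfn2-/- MEFs. Cebpb and Cebpd, named here after their values were seen, rose in both lines and did not pass for the difference: Cebpb changed by 0.51 in WT and 0.67 in Mfn2-/- MEFs, and Cebpd by 1.73 and 1.47. Klf4, which acts upstream of Cebpb, moved in opposite directions, from 177, 199 and 227 to 474, 421 and 409.8 normalized counts in WT and from 437, 402 and 397 to 96.7, 118 and 85.2 in Mfn2-/- libraries (difference -3.16, SE 0.17, adjusted p = 3.22e-12). Nr1h3, the liver X receptor α gene and a target of PPARγ, rose from 3.89, 1.07 and 6.34 to 185, 130.3 and 315 in WT libraries. It stood at 10.6, 5.43 and 10.6 and then 9.26, 4.28 and 2.97 in Mfn2-/- libraries and did not pass there (difference -6.23, adjusted p = 1.79e-07). Zfp423, a commitment factor of preadipocytes, started from 2.92, 3.22 and 1.81 in WT and 121, 109 and 79.7 in Mfn2-/- libraries and reached 47.5, 62.5 and 100.4 and 62.7, 74.5 and 72.3 (difference -4.78, adjusted p = 1.23e-09). Its day +8 ranges overlapped, so the Zfp423 difference lay in the start and not in the end level.

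Genes that store and release triglyceride followed the same order. Of 22 tested, 15 had a lower and 2 a higher difference (median -1.52), 17 rose in WT and 8 in Mfn2-/- MEFs. The higher ones were Hilpda (0.89), which inhibits triglyceride breakdown, and Lpin2 (0.46), a phosphatidate phosphatase. Gpd1, glycerol-3-phosphate dehydrogenase, which makes the glycerol backbone of triglyceride (chromosome 15, 99717515 to 99725005, GRCm38), stood at 14.6, 8.60 and 15.4 normalized counts in WT libraries at day -2 and 11237, 9584 and 18154 at day +8. In Mfn2-/- libraries it stood at 50.0, 50.7 and 30.8 and 17.5, 15.4 and 24.8. Gpd1 rose by 9.86 in WT and fell by 1.14 in Mfn2-/- MEFs, which gave a difference of -10.998 (SE 0.39, adjusted p = 1.86e-11). The order of the lines reversed between the days, with no overlap on either.

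Lipe, hormone-sensitive lipase, rose from 69.1, 67.7 and 76.1 to 1484, 1263 and 2795 in WT libraries and went from 353, 326 and 293 to 229, 235 and 271 in Mfn2-/- libraries (difference -4.997, SE 0.33, adjusted p = 2.29e-07). Plin4, a lipid droplet coat protein, rose from 14.6, 18.3 and 29.9 to 587, 498 and 914 in WT libraries and stayed between 0.991 and 4.11 in the 6 Mfn2-/- libraries (difference -5.33, adjusted p = 1.28e-08). Mgll, monoglyceride lipase, rose in both lines, from 121, 114 and 98.8 to 532, 493 and 479 in Mfn2-/- libraries and from 3.89, 18.3 and 6.34 to 973, 938 and 1704 in WT libraries (difference -4.87, adjusted p = 1.33e-04). Not every droplet gene followed: Plin2, the coat protein of small droplets in most cells and named here after its values were seen, rose by 0.73 in WT and 0.60 in Mfn2-/- MEFs and did not pass for the difference (-0.12, adjusted p = 0.335).

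**Figure D2:**
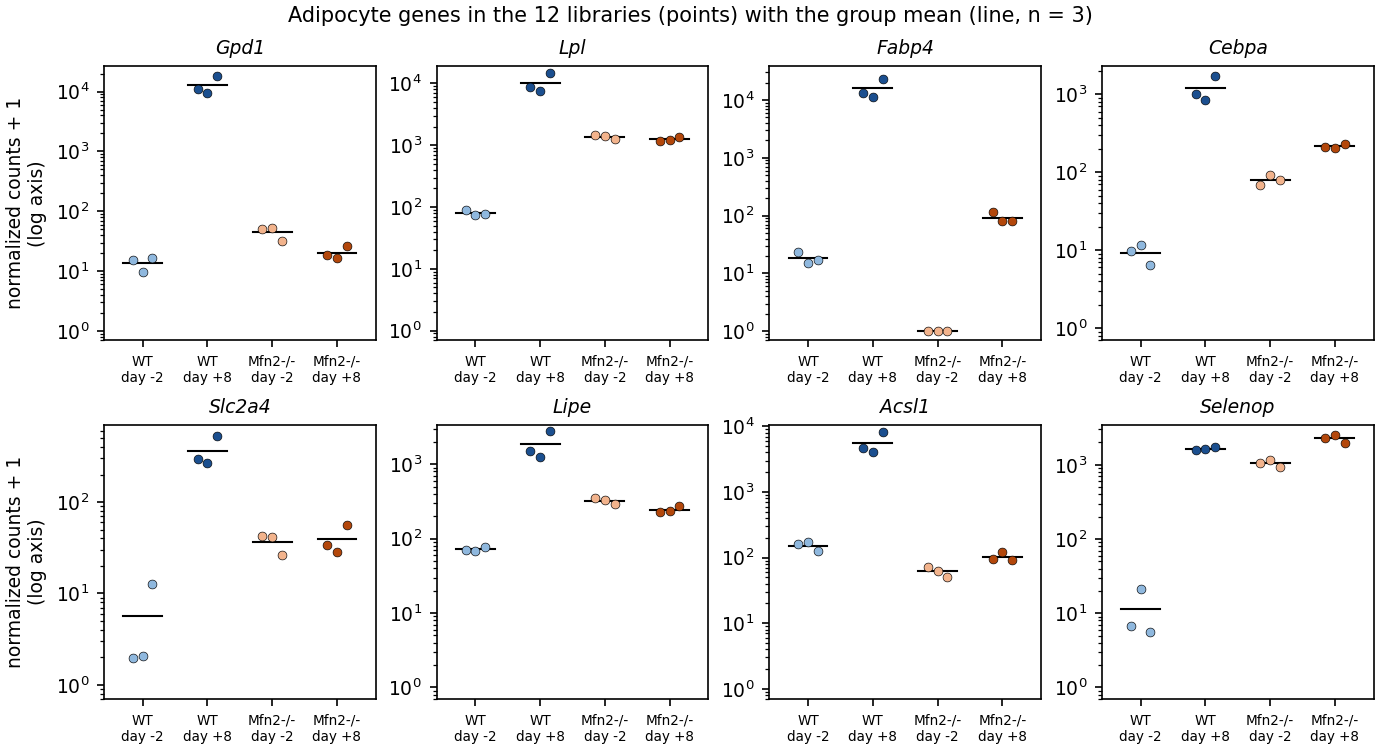
Normalized counts plus 1 on a log axis for 8 genes of the adipocyte programme (Gpd1, Lpl, Fabp4, Cebpa, Slc2a4, Lipe, Acsl1 and Selenop), with 1 point per library and a line at each group mean (n = 3). Gpd1, Lpl, Slc2a4, Lipe and Cebpa start lower in WT than in Mfn2-/- libraries at day -2 and end higher at day +8. Selenop starts lower in WT libraries and stays lower, with a smaller gap.

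Genes for fatty acid uptake split evenly, with 5 of 14 higher and 5 lower (median -0.09), with Lpl, Fabp4, Fabp3 and Acsl1 among the lower ones. Lpl, lipoprotein lipase, which frees fatty acids from circulating triglyceride, rose from 88.5, 74.2 and 75.2 to 8729.8, 7448 and 14534 normalized counts in WT libraries. In Mfn2-/- libraries Lpl stood at 1478, 1388 and 1268 at day -2, above WT, and at 1183, 1202 and 1334 at day +8, below WT (difference -7.09, SE 0.29, adjusted p = 2.46e-08). Fabp4, the adipocyte fatty acid carrier, was 22.4, 14.0 and 16.3 and then 13478, 11310.0 and 23214 in WT libraries, while Mfn2-/- libraries had 0 reads at day -2 and 283 reads at day +8, or 113, 79.7 and 79.3 normalized counts. Fabp4 therefore rose in both lines, at least 89.4-fold in Mfn2-/- MEFs against a floor of 3 reads, and its fitted difference (-3.21) lost its call in edgeR and in DESeq2. Acsl1, which activates long-chain fatty acids, rose from 159.6, 171 and 123 to 4649, 4099.8 and 8136 in WT libraries and went from 70.2, 61.6 and 49.9 to 94.6, 120.0 and 90.2 in Mfn2-/- libraries without passing (difference -4.42, adjusted p = 7.50e-07). The higher ones were Acsl5 (1.69), Acsl4 (1.67), Acsl3 (0.89) and Slc27a1 (0.81), 3 acyl-CoA synthetases and a transporter, and Got2 (0.48), a mitochondrial aminotransferase named after its value was seen.

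De novo fatty acid synthesis moved less, with 6 of 19 genes lower and 3 higher (median -0.33). Scd1, the desaturase that makes oleic acid, rose from 2548, 2630.0 and 2629.5 to 9100.0, 7407 and 16457 in WT libraries and stood at 1374, 1264 and 1516 and 916, 1128 and 1254 in Mfn2-/- libraries (difference -2.33, SE 0.37, adjusted p = 6.33e-04). Fasn, fatty acid synthase, fell in Mfn2-/- MEFs (-0.9993) and did not pass in WT (0.27, adjusted p = 0.156). Of 12 secreted adipocyte products, 6 had a lower and 1 a higher difference (median -1.96). Selenop, which carries selenium out of cells, rose from 5.84, 20.4 and 4.53 to 1576, 1609.6 and 1722 in WT libraries, while Mfn2-/- libraries started at 1059, 1143 and 924 and stood at 2304, 2533 and 1991 at day +8 (difference -6.33, SE 0.61, adjusted p = 2.53e-05). At day +8 every Mfn2-/- library lay above every WT library in Selenop, but the lines did not pass there (0.47, adjusted p = 0.355). The fit pools the spread of all 4 groups for each gene, so the low WT values at day -2 enter that test.

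Insulin signalling and glucose entry counted 13 lower and 5 higher of 28 genes (median -0.32). Slc2a4, the insulin-responsive glucose transporter GLUT4, rose from 0.973, 1.07 and 11.8 to 298, 266 and 526 in WT libraries and stood at 41.5, 40.8 and 25.5 and 32.9, 27.4 and 54.5 in Mfn2-/- libraries (difference -6.48, SE 0.91, adjusted p = 1.48e-04). Insr, the insulin receptor, rose by 0.75 in WT and by 0.14 in Mfn2-/- MEFs, where it did not pass (difference -0.61, adjusted p = 5.54e-05). Grb14, an inhibitor of the insulin receptor, had a difference of -3.49 and Pik3r1, a regulatory subunit of phosphoinositide 3-kinase, of -1.46, so both positive and negative members of the pathway were lower.

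Targets of the cocktail's own agents were counted too, at a day when IBMX and dexamethasone had long been withdrawn. Among 15 glucocorticoid targets, 3 were higher and 5 lower (median -0.72), against 20.8% and 20.0% of all genes. Tsc22d3, the glucocorticoid-induced leucine zipper, went from 195, 199 and 239 to 456, 466 and 519 in WT and from 98.9, 109.6 and 75.4 to 35.0, 31.7 and 46.6 in Mfn2-/- libraries, a rise and a fall (difference -2.49, adjusted p = 6.02e-09). Among 17 cyclic AMP targets, 3 were higher and 4 lower, shares near the background. Ppargc1a, a coactivator that drives mitochondrial biogenesis, rose by 4.07 in WT and 1.36 in Mfn2-/- MEFs (difference -2.71, adjusted p = 2.54e-07), and Rgs2 rose by 3.56 in WT and did not pass in Mfn2-/- MEFs (0.16). Of the named inhibitors of adipogenesis, Zfp521 rose in WT (1.37) and fell in Mfn2-/- MEFs (-1.12), and Zfp467, a factor that promotes adipogenesis, did not pass (-0.26, adjusted p = 0.778).

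WT libraries A to C, the second set of WT cultures in the series, allowed the adipocyte results to be repeated against other WT libraries. With them the difference was -9.84 for Gpd1, -5.92 for Lpl, -3.93 for Cebpa, -3.74 for Slc2a4 and -3.19 for Lipe, each still past the threshold. The calls for Fabp4 (-0.28, adjusted p = 0.457), Scd1 (-0.56, adjusted p = 0.0169) and Insr (-0.46, adjusted p = 0.186) were lost. The lists then counted 6 of 20 transcription factors, 7 of 22 triglyceride genes, 2 of 12 secreted products and 5 of 28 insulin genes as lower. De novo fatty acid synthesis turned round, to 5 higher and 2 lower of 19 (median 0.10), and fatty acid uptake counted 3 in each direction of 14 (median 0.15). Over all genes the calls also fell, to 1279 higher (9.41%) and 1293 lower (9.52%) of 13586. The authors had scaled libraries A to C apart from the Mfn2-/- libraries, so all were put on 1 scale for this setting. A lost call can come with a smaller difference or with a wider spread between libraries, and the part of each was not tested.

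Mitotic genes moved together. Of 40 genes of mitosis and G2-M, 39 had a higher difference (median 0.86), and the other, Spc25, did not pass (0.32, adjusted p = 0.0415). All but Spc25 fell in WT MEFs (39 of 40, median -0.73), whereas 24 rose and 4 fell in Mfn2-/- MEFs (median 0.24). Those that fell in both lines were Plk1, Kif20a, Kif2c and Cenpe, identified after their values were seen. At day -2, 10 of the 40 were higher and 9 lower in Mfn2-/- than in WT MEFs, and at day +8 38 were higher, so most of this difference appeared during differentiation.

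Cdk1, the kinase that starts mitosis, stood at 3602, 3619 and 3268 normalized counts in WT libraries at day -2 and 2055, 2059 and 2219.6 at day +8. In Mfn2-/- libraries it stood at 2850.3, 2915 and 2826 and 4243, 4593 and 4546 (difference 1.37, SE 0.08, adjusted p = 7.99e-12). Cdk1 was lower in Mfn2-/- than in WT MEFs at day -2 and higher at day +8, with no overlap on either day. Kif23, a kinesin of the spindle midzone, fell from 2225, 2146 and 1951 to 987, 984 and 1015 in WT libraries and rose from 1594, 1573 and 1357 to 1567, 1868 and 1989 in Mfn2-/- libraries (difference 1.34, SE 0.11, adjusted p = 7.09e-09). Prc1, its partner in cytokinesis, fell from 2294, 2129 and 2062 to 1298, 1378 and 1411 and rose from 2321, 2316 and 2415 to 3327, 3975 and 3894 (difference 1.33, adjusted p = 1.49e-10). Cdc25b, the phosphatase that activates Cdk1, fell by 0.23 in WT and rose by 1.08 in Mfn2-/- MEFs (difference 1.32, adjusted p = 5.10e-10). These changes were small beside those of the adipocyte genes, and so was their spread between cultures.

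Promoters of the 4 mitotic genes with the highest differences are shown because many G2-M genes share a pair of elements there: a cell cycle homology region, bound by the MuvB complexes, and CCAAT boxes, bound by NF-Y. Each run is 300 bases from RefSeq on GRCm38.p6, 5′ to 3′ on the gene's strand, from 250 bases before the start to 50 after. Capitals mark TTTGAA or TTCGAA and CCAAT, each on either strand (CCAAT reads ATTGG on the other strand), and these motifs do not overlap.
Cdk1, chr10:69352863-69353162, minus strand: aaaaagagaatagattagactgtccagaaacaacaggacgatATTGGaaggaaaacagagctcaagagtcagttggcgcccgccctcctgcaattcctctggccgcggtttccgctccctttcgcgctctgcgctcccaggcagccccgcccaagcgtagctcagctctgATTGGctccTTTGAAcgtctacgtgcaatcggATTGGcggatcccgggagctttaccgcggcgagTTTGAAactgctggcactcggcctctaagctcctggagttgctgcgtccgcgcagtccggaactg
Kif23, chr9:61946750-61947049, minus strand: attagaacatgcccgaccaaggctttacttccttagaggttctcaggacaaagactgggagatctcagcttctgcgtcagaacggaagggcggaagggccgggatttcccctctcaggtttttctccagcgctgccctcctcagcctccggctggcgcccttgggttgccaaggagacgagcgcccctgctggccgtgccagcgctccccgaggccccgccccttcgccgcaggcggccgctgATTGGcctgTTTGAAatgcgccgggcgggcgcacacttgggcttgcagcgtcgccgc
Prc1, chr7:80294201-80294500, plus strand: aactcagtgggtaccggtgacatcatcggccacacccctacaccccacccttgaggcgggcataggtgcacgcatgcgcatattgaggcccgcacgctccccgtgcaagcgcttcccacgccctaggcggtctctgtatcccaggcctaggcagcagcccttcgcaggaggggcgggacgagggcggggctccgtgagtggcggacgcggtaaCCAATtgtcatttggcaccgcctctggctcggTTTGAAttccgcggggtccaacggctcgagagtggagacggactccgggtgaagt
Cdc25b, chr2:131186698-131186997, plus strand: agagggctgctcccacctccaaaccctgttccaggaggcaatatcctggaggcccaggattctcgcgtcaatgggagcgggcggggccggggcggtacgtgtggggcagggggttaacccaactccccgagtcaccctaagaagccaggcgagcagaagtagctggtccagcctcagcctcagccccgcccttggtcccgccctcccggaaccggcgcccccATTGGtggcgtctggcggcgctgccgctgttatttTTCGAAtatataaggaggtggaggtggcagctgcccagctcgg

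In all 4 runs a cell cycle homology region lies near the start site with a CCAAT box a short way before it. Of the 40 genes, 34 matched a RefSeq promoter, and TTTGAA or TTCGAA was present in 27 of them (79.4%), against 13.4% of 9911 promoters of genes tested and 19.4% of all 27025 promoters. CCAAT was present in 28 (82.4%) against 39.0%, and both were present in 24 (70.6%) against 5.72%. A match describes the letters in this window and does not show that a factor binds.

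Replication genes did not share the pattern. Of 40 genes of DNA replication and E2F targets, 7 were higher and 5 lower (median 0.02). Of these genes 21 fell in WT and 18 in Mfn2-/- MEFs, and WT libraries A to C left 1 higher and 1 lower. Mcm3, a subunit of the replicative helicase, was among the higher ones (0.46, SE 0.07, adjusted p = 7.06e-06), and Ccne1, cyclin E1, was the lowest (-1.85, adjusted p = 9.28e-07). An E2F motif (TTTCCCGC, TTTGGCGC, TTTCGCGC or TTTGCCGC, either strand) was present in 12 of 33 promoters of the replication list (36.4%), in 1 of 34 mitotic promoters and in 4.27% of promoters of genes tested. The replication list was drawn up to include E2F targets, so its share of this motif can follow from its membership. Cell cycle brakes and p53 targets counted 6 higher and 6 lower of 23, against 20.8% and 20.0% of all genes. Cdkn2a (0.75) and Cdkn2b (0.70), which hold back cyclin-dependent kinases or stabilise p53, were higher. Btg2 (-1.32) and Rb1 (-0.97), the retinoblastoma gene, were lower. The calls for Cdkn2b, Btg2 and Rb1 were lost with WT libraries A to C. Those for Cdkn2a, Cdkn2b and Btg2 were lost in a fit of all 36 libraries. Against WT libraries A to C, 25 of the 40 mitotic genes were higher (median 0.76) and Cdk1 had a difference of 1.22 (adjusted p = 5.53e-05).

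**Figure D3:**
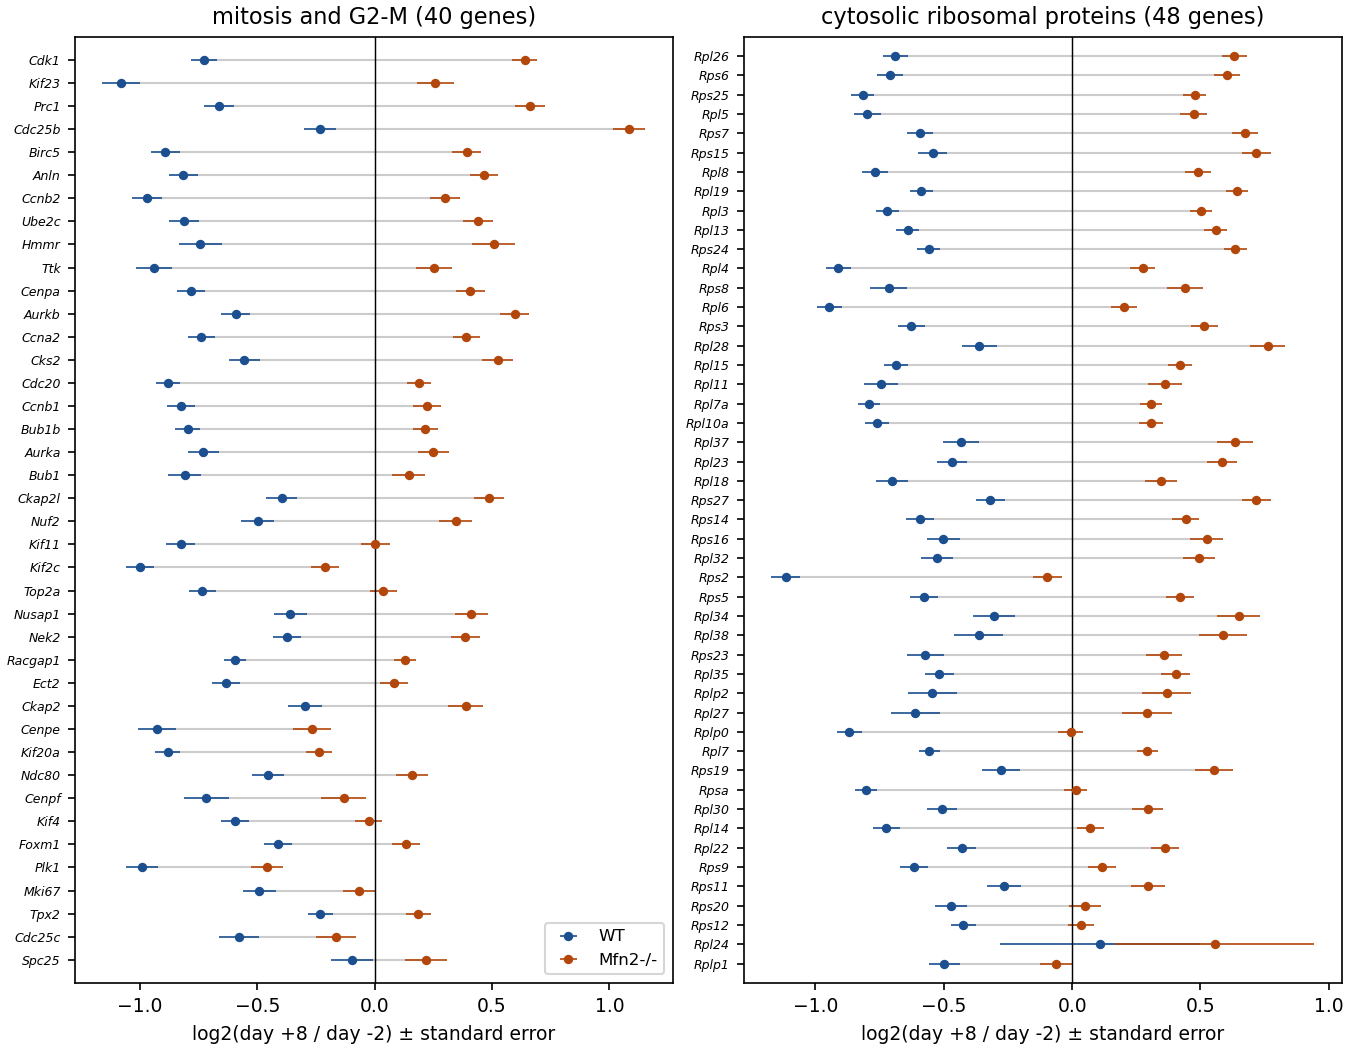
Log2 change from day -2 to day +8 in WT and in Mfn2-/- MEFs for each gene of the mitotic and the cytosolic ribosomal lists, 1 row per gene, as a point with its standard error. In WT 39 of 40 mitotic and 47 of 48 ribosomal genes fell, and in Mfn2-/- MEFs 24 and 38 rose.

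Cytosolic ribosomal protein genes moved as one. Of 48 tested, 47 had a higher difference (median 1.03). The same number fell in WT MEFs (median -0.59), and 38 rose in Mfn2-/- MEFs (median 0.43). Rpl24, at 3.89 to 14.6 normalized counts, was the one that did not pass (0.45, adjusted p = 0.517). Rpl26 went from 6266, 6452 and 5931 to 3905, 3849 and 3809.5 normalized counts in WT libraries and from 4899, 4936 and 4929 to 7622, 8032 and 7240.0 in Mfn2-/- libraries (difference 1.32, SE 0.07, adjusted p = 2.99e-12). Rps6, the ribosomal protein phosphorylated downstream of mTOR, went from 9174, 9231 and 9185 to 5752, 5580.0 and 5536 and from 6039.9, 6609 and 6469 to 9583, 10409 and 9103 (difference 1.31, SE 0.07, adjusted p = 6.11e-12). For both genes Mfn2-/- libraries lay below all WT libraries at day -2 and above all of them at day +8. Ribosomal protein genes have many near-identical pseudogene copies, and how reads that map to several places were counted is not given in the sources used here, so their levels are uncertain. In place of D to F, WT libraries A to C gave 36 of 48 higher (median 0.80).

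Energy metabolism parted by pathway. Glycolysis counted 13 higher and 2 lower of 22 genes (median 0.81): 10 fell in WT, 13 rose in Mfn2-/- MEFs, and 4 did both. Ldha, lactate dehydrogenase A, stood at 6113, 6211 and 5467 normalized counts in WT libraries at day -2 and 3919, 4236 and 5349 at day +8, and at 1960.1, 1884 and 1924 and 7003, 5117 and 7219 in Mfn2-/- libraries (difference 2.14, SE 0.20, adjusted p = 4.39e-06). Mfn2-/- MEFs thus began well below WT and ended in its range or above it. Pgk1, phosphoglycerate kinase, rose from 1851, 1801 and 1781 to 5057, 4026 and 5345 in Mfn2-/- libraries and did not pass in WT (-0.18, difference 1.58, adjusted p = 6.64e-09), and Eno1, enolase, fell in WT (-1.10) and rose in Mfn2-/- MEFs (0.47). The exceptions were Pfkfb3 (-1.46), which makes the activator of phosphofructokinase, and Slc16a1 (-1.02), a lactate carrier. Glycolysis again counted, with WT libraries A to C, 13 higher and 2 lower (median 1.14).

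Fatty acid oxidation went the other way, with 14 lower and 1 higher of 22 genes (median -0.77); 19 rose in WT and 6 in Mfn2-/- MEFs, and the higher gene was Eci2 (0.43), an enoyl-CoA isomerase. Acadm, medium-chain acyl-CoA dehydrogenase, went from 727, 790.0 and 705 to 1790.1, 1553 and 2842 in WT libraries and from 1351, 1334 and 1227 to 842, 777 and 788 in Mfn2-/- libraries (difference -2.13, SE 0.25, adjusted p = 4.73e-05). Peroxisomal genes counted 17 lower of 29, the other 12 not passing (median -0.60), with Cat, catalase, at -1.91. Breakdown of branched-chain amino acids, a fuel of adipocytes, counted 11 lower and 1 higher of 18 (median -0.69), and 5 of its genes rose in WT and fell in Mfn2-/- MEFs. Bckdhb, a subunit of the dehydrogenase that commits these amino acids to oxidation, went from 194, 252 and 201 to 572, 531 and 802 in WT and from 133, 155 and 173 to 62.7, 54.8 and 79.3 in Mfn2-/- libraries (difference -2.76, SE 0.23, adjusted p = 8.25e-09). With WT libraries A to C the lower counts were 3 of 22 for fatty acid oxidation, 4 of 29 for peroxisomes and 7 of 18 for branched-chain amino acids. Over all genes tested, 9.52% were lower in that setting.

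Respiratory chain genes were counted by the genome that encodes them. Of 7 genes tested that mitochondrial DNA encodes, all rose in WT MEFs, and 6 had a lower difference (median -0.72). The other, mt-Co1 (-0.24, adjusted p = 0.107), is named after its value was seen. mt-Nd4, a subunit of complex I, stood at 2089, 1937 and 2182 normalized counts in WT libraries at day -2 and 3677, 3596 and 3949 at day +8, and at 1399.6, 1203 and 1251 and 1417, 1384 and 1413 in Mfn2-/- libraries (difference -0.72, SE 0.09, adjusted p = 6.32e-07). Nuclear genes of complex I counted 3 higher and 7 lower of 37 (median -0.05), and those of complexes II to V 7 higher and 4 lower of 40 (median -0.02). Many rose in both lines: for complex I, 23 rose in WT and 21 in Mfn2-/- MEFs, with medians of 0.37 and 0.35. Ucp2, an inner membrane carrier, had -3.71, and Cox7a1 (-5.14), a subunit of cytochrome oxidase named after its value was seen, was the lowest of complexes II to V. Leaving out 1 library at a time moved the lower count of complex I between 3 and 8. The lower calls were mostly lost with WT libraries A to C, a setting that called fewer genes over all genes tested. All 6 lower calls of mitochondrially encoded genes were lost (median -0.51, adjusted p = 0.0331 for mt-Nd4), as they were in a fit of all 36 libraries. Complex I lost its 7 lower calls and counted 9 higher (median 0.34), and complexes II to V counted 9 higher and 2 lower (median 0.40).

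Transcripts of extracellular matrix genes changed in both lines, and differently. Of 24 collagen genes, 14 had a lower and 4 a higher difference (median -0.68), 17 rose in WT and 7 in Mfn2-/- MEFs, and 6 rose in WT while falling in Mfn2-/- MEFs. Col3a1, type III collagen, went from 11577, 11501 and 13819 to 29303, 31414 and 28536 normalized counts in WT libraries. In Mfn2-/- libraries it went from 27221, 26431 and 24704 to 12218, 12169 and 12757, a near mirror image (difference -2.35, SE 0.09, adjusted p = 5.82e-14). Col11a1, a fibrillar collagen best known from cartilage, rose from 565, 563 and 710.1 to 9732, 10269 and 9202 in WT libraries and did not pass in Mfn2-/- MEFs (-0.37, difference -4.36, adjusted p = 1.00e-07). Col7a1, the anchoring fibril collagen, was at the other end with 3.08: it fell from 1442, 1606 and 1445 to 167, 215 and 165 in WT libraries and held at 12.8, 11.8 and 9.56 and 14.4, 7.71 and 13.9 in Mfn2-/- libraries. With WT libraries A to C, 8 of 24 collagens were lower, and the Col3a1 call was lost (-1.14, adjusted p = 0.0816).

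Matrix glycoproteins and proteoglycans counted 21 lower and 9 higher of 36 (median -0.84). Eln, elastin, had 3 reads over the WT libraries at day -2 and 4611 at day +8, a 1450-fold ratio (95% counting interval 496 to 7031), and rose from 85.1, 89.7 and 90.3 to 968, 928 and 943 normalized counts in Mfn2-/- libraries. By day +8 Eln did not pass between the lines (-0.59, adjusted p = 0.076). The spread in that test includes the near-zero WT group at day -2. Dcn, decorin, rose from 865, 835 and 1061 to 11916, 12054 and 11217 in WT and from 3812, 3764 and 3759 to 5012, 5492 and 5555 in Mfn2-/- libraries (difference -3.18, SE 0.10, adjusted p = 8.19e-15). Of the higher members, Postn and Thbs2 began near zero in Mfn2-/- MEFs. Postn, periostin, rose from 7.44, 6.34 and 12.8 to 1663, 1370.0 and 1897 there, still below the 11345, 11634 and 10441 of WT libraries at day +8 (difference 3.83, SE 0.36, adjusted p = 1.63e-05). Thbs2, thrombospondin 2, went from 0 to 643 reads in Mfn2-/- MEFs, at least 203-fold against a floor of 3 reads, and rose from 912, 871 and 859 to 9579.6, 10210.0 and 7160.1 in WT libraries.

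Proteases and their inhibitors split, 12 higher and 9 lower of 34. Mmp2, gelatinase A, rose from 352, 377 and 424 to 5019.7, 5282 and 3857 in WT and fell from 12344, 12462 and 9536 to 4619.5, 5717 and 4166 in Mfn2-/- libraries, and the lines overlapped at day +8 (difference -4.85, SE 0.23, adjusted p = 4.01e-08). Actin and contractile genes of smooth muscle counted 15 higher and 4 lower of 23 (median 0.68), and 19 rose in Mfn2-/- MEFs against 11 in WT. Tpm1, tropomyosin 1, went from 17375, 17477 and 17522 to 15376, 15548 and 12617 in WT and from 3497, 3203 and 3497 to 7728, 8757 and 6924 in Mfn2-/- libraries (difference 1.47, SE 0.12, adjusted p = 3.37e-08), and Zyx, zyxin of focal adhesions, had a difference of 1.35. Mylk, myosin light chain kinase, was an exception that rose in both lines (-2.28). Against WT libraries A to C, 8 contractile genes were higher and 1 lower of 23, 9 and 4 of 33 proteases and inhibitors, and 7 and 12 of 36 glycoproteins and proteoglycans. The summed level of 6 muscle markers was higher in Mfn2-/- MEFs on both days. It was 3236 to 3338 normalized counts at day -2 and 4591 to 5313 at day +8, against 132.1 to 158.0 in the WT libraries. Of the 6 genes, 3 passed as higher at day -2 and 3 did not pass, and all 6 passed as higher at day +8. The part of these markers in the contractile result was not tested.

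Signals that act on preadipocytes differed by component. WNT signalling, which holds back adipogenesis when its canonical branch is active, counted 17 lower and 8 higher of 34 (median -0.69). Fzd4, a receptor, rose from 37.9, 20.4 and 35.3 to 701, 676 and 828 in WT libraries and held at 1089, 1019 and 1098 and 829, 1033 and 999.6 in Mfn2-/- libraries (difference -4.72, adjusted p = 1.31e-08). Wnt5a, a ligand mainly of the noncanonical branch, rose from 70.1, 73.1 and 98.7 to 748, 735 and 657 in WT and fell from 974, 962 and 942 to 502, 528 and 542 in Mfn2-/- libraries (difference -4.02, SE 0.14, adjusted p = 1.18e-14). Axin2 and Tcf7, both targets of the canonical branch, moved apart: Axin2 rose in WT (2.09) and fell in Mfn2-/- MEFs (-0.99), and Tcf7 fell in WT (-1.30) and rose in Mfn2-/- MEFs (0.89). Tcf7 reached 599.5, 672 and 569.6 normalized counts in Mfn2-/- and 65.4, 66.9 and 50.2 in WT libraries at day +8. The canonical ligands Wnt10a (1.89) and Wnt10b (1.70) were higher as well, but both calls were lost with WT libraries A to C and in the fit of all 36 libraries.

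The IGF axis counted 8 lower and 3 higher of 19 (median -0.36), led by binding proteins that hold IGF away from its receptor. Igfbp5 rose from 48.7, 47.3 and 50.7 to 1487, 1376 and 1260.5 normalized counts in WT libraries and fell from 1619, 1629.5 and 2110.2 to 628, 572 and 797 in Mfn2-/- libraries (difference -6.21, SE 0.16, adjusted p = 1.18e-14). Igfbp4 did the same, from 126, 133 and 175 to 4349, 4438 and 4295 and from 3335, 3262 and 3127 to 2069, 1576 and 1920.0 (difference -5.73, SE 0.15, adjusted p = 7.63e-13). For both, Mfn2-/- libraries lay above WT at day -2 and below it at day +8. Igfbp2 had 3 reads over the WT libraries at day -2 and 1629 at day +8, a ratio of 512 (95% counting interval 175 to 2486). In Mfn2-/- libraries Igfbp2 went from 556, 568 and 615 to 1238, 1188 and 947, without overlap. It did not pass there in a fit that pools the spread of all 4 groups, the near-zero WT group included. Igfbp7, which binds insulin as well as IGF, went the other way: it rose from 640.3, 655 and 635 to 1991, 1868 and 1741 in Mfn2-/- libraries and held at 432, 441 and 413 and 449, 438 and 417 in WT libraries (difference 1.51, SE 0.09, adjusted p = 2.67e-11). Both lists kept lower counts with WT libraries A to C, at 14 of 34 and 8 of 19 lower.

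Chemokines and NF-κB targets counted 14 higher and 2 lower of 25 (median 0.85). They rose mainly in Mfn2-/- MEFs (14, against 6 in WT) from a start that was lower than in WT for 19 of them. Ccl2, which attracts monocytes, went from 43.6, 50.7 and 66.9 to 572, 572 and 526 in Mfn2-/- and from 1272, 1355 and 1228 to 982, 1037 and 588 in WT libraries (difference 3.98, SE 0.28, adjusted p = 3.84e-07). Cx3cl1, fractalkine, rose from 169, 206 and 168 to 1399, 1353 and 1245 in Mfn2-/- libraries, into the range of 1467, 1337 and 1059.6 seen in WT libraries (difference 2.96, SE 0.15, adjusted p = 1.37e-10). Il1rn, the interleukin-1 receptor antagonist, went against the list, rising in WT (1.43) and falling in Mfn2-/- MEFs (-1.33). The list counted 12 higher and 2 lower with WT libraries A to C.

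Interferon-stimulated genes counted 18 lower and 2 higher of 32 (median -1.15); 28 rose in WT and 12 in Mfn2-/- MEFs. The higher ones were Ifitm3 (0.93) and Isg20 (0.90), the latter named after its value was seen. Ifi27 rose from 9.73, 10.7 and 18.1 to 559, 643 and 663 in WT libraries and went from 214, 242 and 215 to 371, 266 and 290.3 in Mfn2-/- libraries (difference -5.08, SE 0.25, adjusted p = 5.24e-12). Rtp4 rose in both lines, from 27.2, 19.3 and 15.4 to 165, 279 and 154 in WT and from 10.6, 5.43 and 6.38 to 16.5, 19.7 and 11.9 in Mfn2-/- libraries (difference -2.17, adjusted p = 2.53e-04). Most of these calls were lost with WT libraries A to C in place of D to F, a setting that called fewer genes over all genes tested. There 1 of 32 genes passed, the median kept its sign (-0.52), and Ifi27 no longer passed (-3.82, adjusted p = 0.0149).

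Among single genes, several of the highest differences fell on genes that went down in WT and up in Mfn2-/- MEFs. Spp1, osteopontin, a secreted ligand of integrins, stood at 7218, 7194 and 5325 normalized counts in WT libraries at day -2 and 454, 463 and 296 at day +8. In Mfn2-/- libraries it stood at 84.0, 82.4 and 72.3 and 414, 422 and 306 (difference 6.27, SE 0.27, adjusted p = 5.94e-09). The lines met at day +8, where Spp1 did not pass (-0.07, adjusted p = 0.748). Sema7a, Mmp9 and Asb4 showed the same fall and rise, with differences of 5.95, 5.67 and 6.24, and Mmp9 had 2.13, 1.81 and 0 normalized counts in Mfn2-/- libraries at day -2.

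Several genes with higher differences are known to be induced when the ERK kinase is active, a set picked here after its values were seen. No list of ERK targets was counted, so members that went the other way are not shown. ERK activity was not tested. Dusp6, the phosphatase that switches ERK off, fell from 291, 250.4 and 190.2 to 104.9, 112 and 125 in WT and rose from 157, 158 and 212 to 1069.5, 1123 and 1040.2 in Mfn2-/- libraries (difference 3.70, SE 0.19, adjusted p = 1.26e-11). Etv4, an ETS transcription factor, fell from 265, 235 and 275 to 38.5, 35.2 and 32.1 and rose from 34.0, 17.2 and 35.1 to 153, 176 and 116 (difference 5.21, SE 0.31, adjusted p = 2.98e-11). Etv5, its relative, did not pass in WT (-0.39) and rose from 38.3, 43.5 and 47.8 to 574, 683 and 465 in Mfn2-/- libraries (difference 4.08, SE 0.20, adjusted p = 1.48e-12). For Dusp6, Etv4 and Etv5 every Mfn2-/- library lay above every WT library at day +8. Fosl1, an AP-1 subunit, had a difference of 4.45, but 57.2% of its length is overlapped by genes on the opposite strand, and without knowledge of strand in the counting their reads cannot be told apart. Jun (1.98) and Junb (2.22), its partners in AP-1, were also higher, as was Errfi1 (2.54), a feedback inhibitor of the EGF receptor. With WT libraries A to C, Dusp6, Etv4 and Etv5 still passed, at 2.80, 4.10 and 3.70, as did Fosl1, Jun and Errfi1, and Junb did not (adjusted p = 0.0109).

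**Figure D4:**
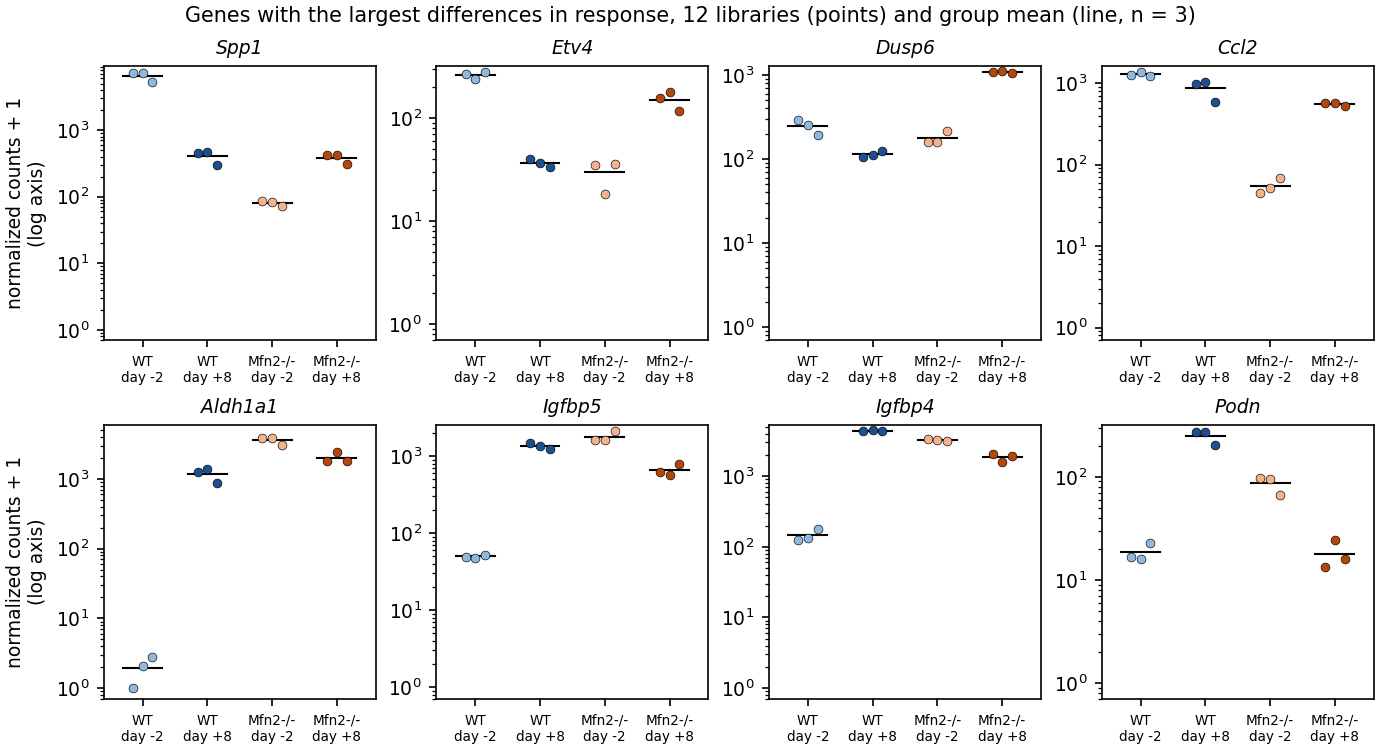
Normalized counts plus 1 on a log axis for 8 genes with large differences in response, with 1 point per library and a line at each group mean (n = 3). In the upper row (Spp1, Etv4, Dusp6, Ccl2) the Mfn2-/- libraries rose; in the lower row (Aldh1a1, Igfbp5, Igfbp4, Podn) the WT libraries rose, and Podn, Igfbp4 and Igfbp5 fell in Mfn2-/- libraries.

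The lowest differences outside lipid metabolism belonged to genes that WT MEFs turned on from near zero and that Mfn2-/- MEFs already expressed. Aldh1a1, which makes retinoic acid, had 3 reads over the WT libraries at day -2 and 3840 at day +8, a ratio of 1207 (95% counting interval 413 to 5856). Mfn2-/- libraries held 3879.8, 3908 and 3006 normalized counts of Aldh1a1 at day -2 and 1785, 2419.5 and 1775 at day +8, without overlap. Aldh1a1 did not pass there, again with the near-zero WT group in the pooled spread. Aldh1a7, a neighbouring aldehyde dehydrogenase of the same family, went from 1 to 1233 reads in WT MEFs (ratio 1163, interval 208 to 45970) and fell from 75.5, 80.6 and 78.6 to 6.17, 5.14 and 10.9 in Mfn2-/- libraries. The 2 enzymes have similar sequences, so reads could be split between them. Prss12, a secreted protease, rose from 4.87, 6.45 and 2.72 to 1633, 1636 and 1468 in WT and fell from 2567, 2893 and 1944 to 728, 909.9 and 756 in Mfn2-/- libraries (difference -9.79, SE 0.32, adjusted p = 8.23e-10).

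Plagl1, an imprinted zinc finger gene, rose from 19.5, 24.7 and 23.6 to 1412, 1382 and 1553 in WT libraries, while Mfn2-/- libraries stood at 1975, 1786 and 2286 and 1659.8, 1574 and 1970.5 and did not pass (difference -6.16, SE 0.14, adjusted p = 4.03e-16). Podn, a matrix proteoglycan, rose from 15.6, 15.05 and 21.7 to 269, 272 and 202 in WT and fell from 95.7, 94.2 and 65.9 to 12.3, 23.1 and 14.9 in Mfn2-/- libraries (difference -6.06, SE 0.33, adjusted p = 6.25e-12), whereas its relative Podnl1 fell in WT (-2.09) and rose in Mfn2-/- MEFs (1.63). Adamts16 (-6.31) and Adamts14 (4.14), proteases of the same family, likewise stood at opposite ends. Pdzd2 (-6.26) and Parm1 (-6.18) rose in WT and fell in Mfn2-/- MEFs, and Pkp1, a desmosome protein (4.72), and Cd14, the lipopolysaccharide co-receptor (4.22), fell in WT and rose in Mfn2-/- MEFs.

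The plot of shares per list sets each list beside the background. Hypoxia targets, with 6 higher and 6 lower of 28 genes (between 4 and 9 higher when single libraries were left out), stood near the 20.8% and 20.0% over all genes. With WT libraries A to C they counted 9 higher and 2 lower (median 0.38), against 9.41% and 9.52% of all genes.

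**Figure D5:**
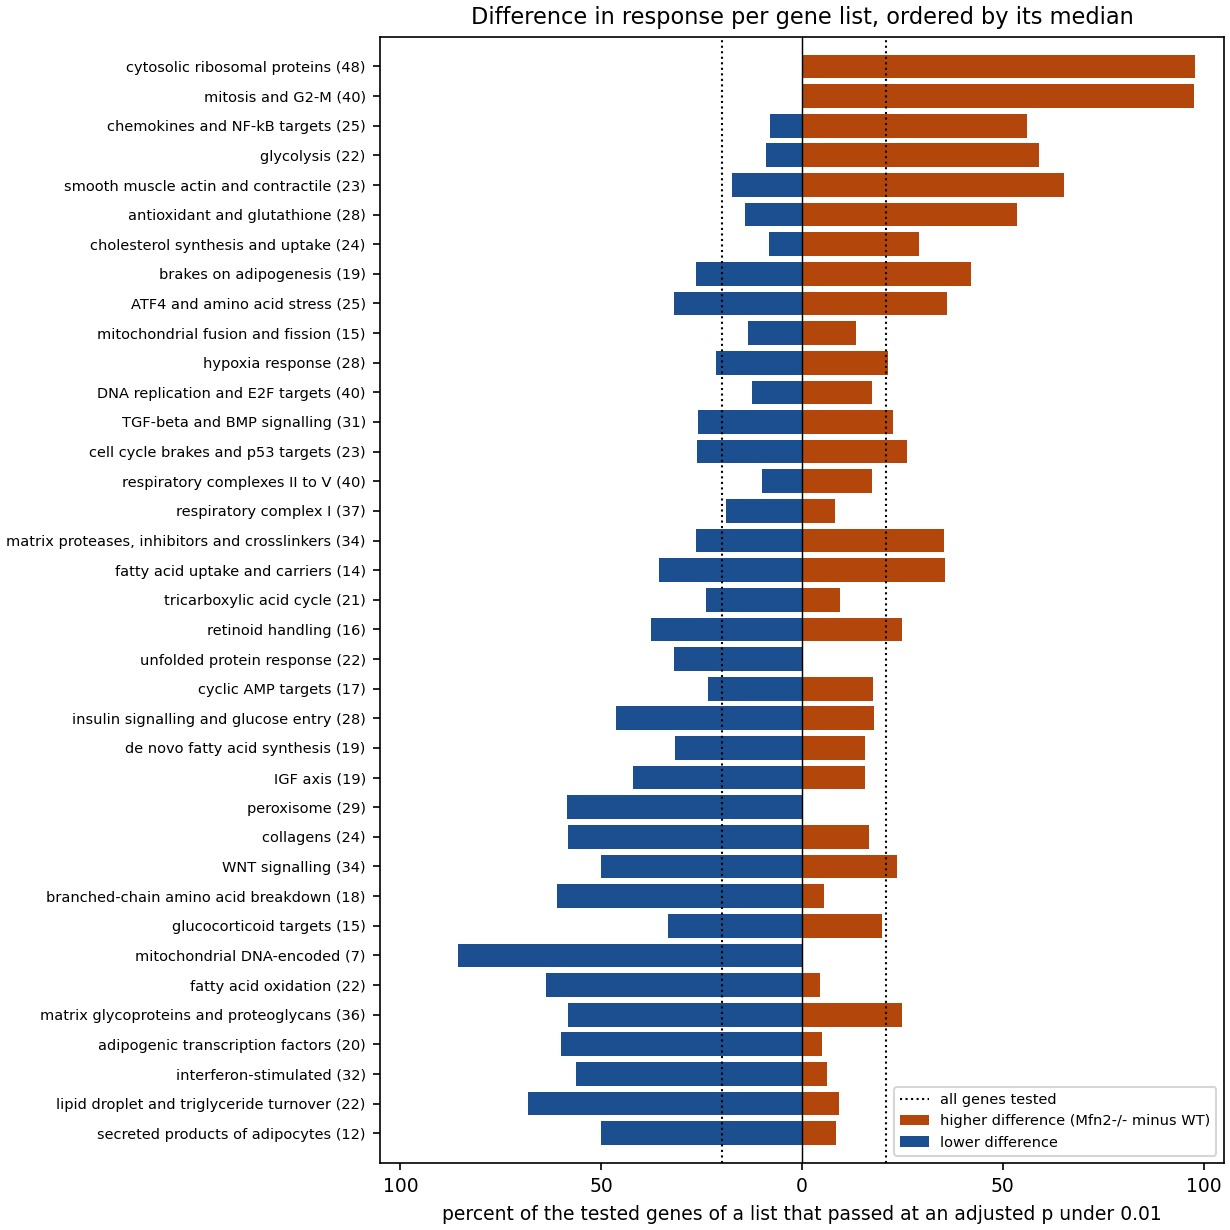
Share of genes tested in each list with a higher and with a lower difference in response (percent), beside the share over all genes (20.8% higher and 20.0% lower). Lists other than the cell type markers run from the highest median difference (top) to the lowest, with the number of genes tested in brackets, and the ribosomal (47 of 48 higher) and mitotic lists (39 of 40 higher) stand at the top.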

How the data were processed

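Poly(A) RNA from MEFs was sequenced as paired-end reads (TruSeq libraries, NovaSeq). Per the submitters' processing notes the authors used cutadapt, STAR, SAMtools and featureCounts on GRCm38, with versions, strand setting and treatment of multi-mapped reads not given in the sources used here. The deposited signal values are gene counts divided by 1 factor per library, set within blocks of 6 libraries, and whole reads were recovered for 100% of values (tolerance 0.01). Of 16623 lines, 19 symbols in repeated identical lines were merged, leaving 14761 genes, of which 99.8% matched 1 gene in the GRCm38.p6 annotation.

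Values of the day +8 block were multiplied by 0.9439, a TMM-derived factor that puts the days on 1 scale. Day and block cannot be told apart, but the factor all but cancels in the difference in response. Genes reaching 10 normalized counts in 3 or more of the 12 libraries were tested on log2(value + 1) with limma 3.58.1 under R 4.3.3, using its trend and robust options over 4 groups with 8 residual df, with Benjamini-Hochberg adjustment and a threshold of 0.01. Fold changes on this scale understate changes of low genes. Each gene has 1 residual spread over the 4 groups. A near-zero group can therefore keep a change between other groups from passing. Groups at 3 reads or fewer are given as reads with a bound or an exact 95% counting interval, which covers counting error only. The fit was tested on simulated data. edgeR's quasi-likelihood test on the recovered reads called 5246 genes.

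Genes named are those of the study (Mfn1, Mfn2 and adipocyte genes), those with the largest differences among genes that passed and reached a mean of 100, and up to 4 per list and direction. Others are said to be named after their values were seen, and some genes that met the rule are not reported here. The members and lists were chosen with earlier results of these data known. Alternatives were edgeR 4.0.16, DESeq2 1.42.0, other pseudocounts, filters, scalings and thresholds, WT libraries A to C, all 36 libraries, and each library left out. The columns of the Mfn2-/- libraries carry other letters than their labels, so these libraries are given without letters.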

Additional observations from a re-analysis of the deposited data

Results flagged for a closer look

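The lines moved in opposite directions, each past the test and with an interaction that passed, for 472 genes that rose in WT and fell in Mfn2-/- MEFs and for 636 that fell in WT and rose in Mfn2-/- MEFs. All 1108 passed for the difference in response. The named genes of this kind with the largest differences that rose in WT and fell in Mfn2-/- MEFs were Aldh1a7 (difference -11.56), Gpd1 (-10.998), Prss12 (-9.79), Adamts16 (-6.31), Pdzd2 (-6.26), Igfbp5 (-6.21), Parm1 (-6.18), Podn (-6.06) and Igfbp4 (-5.73). Those that fell in WT and rose in Mfn2-/- MEFs were Spp1 (6.27), Asb4 (6.24), Sema7a (5.95), Mmp9 (5.67), Etv4 (5.21), Pkp1 (4.72), Fosl1 (4.45), Cd14 (4.22), Adamts14 (4.14), Podnl1 (3.72) and Dusp6 (3.70). The value for Aldh1a7 rests on 1 read over the WT libraries at day -2.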

How the results depend on the processing

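Most values of the named genes kept their side of the threshold: over 24 alternatives these genes gave 5910 values on the same side, and 382 of the same sign that no longer passed. Most of them were named because they passed in the main fit, so this agreement does not speak for all genes tested. Another 11 had the opposite sign to a main call, none of them past the threshold. Genes that passed in neither fit, such as Zfp467 and Mfn2, count among the 5910 whatever their sign. The choice of WT libraries changed which genes were called. With A to C in place of D to F the difference counted 1279 higher and 1293 lower (WT response 1615 up and 1704 down), and 2311 of those calls matched the main ones in direction (42.9% of the main calls, 89.9% of its own). The 11 main calls that took the opposite sign all did so in that setting: Pik3cb -0.22, Sgk1 -0.40, Glul 0.15, Ndufa3 0.10, Ndufa1 0.17, Ndufv1 0.16, Atp5j2 0.027, mt-Nd6 0.027, Gclc -0.066, Trib3 0.35 and Aldh1l2 0.069, and the cause was not tested. A fit of all 36 libraries gave 1033 higher and 1170 lower (WT 1855 up, 1658 down; Mfn2-/- 1293 up, 1174 down). It kept 40.5% of the main calls for the difference in response. An adjusted p under 0.001 with over 1.5 in size gave 346 higher and 728 lower (WT 846 up, 264 down; Mfn2-/- 425 up, 225 down). Without genes overlapped on the opposite strand, 1922 were higher and 1735 lower of 8797 tested. On the deposited scale the Mfn2-/- response counted 3552 up and 2188 down against 2831 and 2839 and the WT response 3842 up and 2771 down against 3251 and 3455, a median shift of 0.08, while the difference in response counted 5379 against 5382. Quantile normalization gave 2843 up and 4012 down in WT. Leaving out 1 library gave 2472 to 2689 higher and 2299 to 2562 lower (WT 2735 to 3342 up, 2992 to 3490 down; Mfn2-/- 2471 to 2930 up, 2276 to 2942 down). WT libraries of the same letter did not deviate together between days (correlations -0.03, -0.04 and -0.03), and none correlated best with its own letter. They were not paired in the main fit, but these correlations cannot show that a letter marks no shared culture. A replicate block on WT letters gave 2652 higher and 2558 lower. The calls for Pparg, Fabp4, Agt, Chrdl1, Rspo2, Serpine2, Il1rl1, Crabp1 and Ifit3b were lost in both edgeR and DESeq2, and 248 genes had 0 reads in a group, where depth limits the fold.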

Other observations

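Stress and redox genes, not described above, split by pathway. Of 28 antioxidant and glutathione genes, 15 had a higher and 4 a lower difference (median 0.42): Gstp1, a glutathione transferase, went from 1572, 1568 and 1586 to 1034, 1063 and 1079 normalized counts in WT libraries and from 1140.1, 1242 and 1127 to 2010.5, 1997 and 1665 in Mfn2-/- libraries (difference 1.26, adjusted p = 5.42e-10), and Txn1, thioredoxin, had 1.11. Hmox1, haem oxygenase 1, moved against them, rising in WT (1.09) and falling in Mfn2-/- MEFs (-0.83). ATF4 and amino acid stress targets split 9 higher and 8 lower of 25, with Psph, an enzyme of serine synthesis, at 0.84 and Cth, which makes cysteine, at -2.22. Genes of the unfolded protein response counted 7 lower of 22, the other 15 not passing, with Dnajb9, a chaperone partner of the endoplasmic reticulum, at -1.60. Cholesterol genes fell in both lines (18 of 24 in WT, 19 in Mfn2-/- MEFs), and 7 had a higher and 2 a lower difference. With WT libraries A to C the antioxidant list counted 9 higher and 2 lower, the ATF4 list 6 and 1, the unfolded protein response 2 lower, and the cholesterol list 5 higher. In that setting 9.41% of all genes were higher and 9.52% lower.

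Retinoid handling, the list that holds Aldh1a1, counted 4 higher and 6 lower of 16. Stra6, a retinol transporter, fell from 80.8, 65.6 and 88.8 to 7.17, 6.16 and 2.01 normalized counts in WT libraries and stood at 119, 109.6 and 136 and 119, 202 and 139 in Mfn2-/- libraries (difference 4.12, adjusted p = 1.97e-07). Dhrs3, which returns retinaldehyde to retinol and is itself induced by retinoic acid, rose in both lines (4.48 in WT and 2.06 in Mfn2-/- MEFs). The mesothelium marker Upk1b, a uroplakin, fell from 3376, 3339 and 2945 to 683, 706 and 628 in Mfn2-/- libraries and was at 0.973, 0 and 0.906 and 21.5, 28.2 and 24.1 in WT libraries. Muscle markers counted 5 higher of 6, between 2 and 5 when single libraries were left out, with Tnnt2, cardiac troponin T, at 161, 172 and 244 and 385, 385 and 275 in Mfn2-/- and 32.1, 53.7 and 29.9 and 4.48, 1.76 and 4.02 in WT libraries (difference 4.04, adjusted p = 3.84e-08). Brakes on adipogenesis counted 8 higher and 5 lower of 19 (4 and 3 with WT libraries A to C), with Gata2, a factor that holds preadipocytes undifferentiated, going from 204, 209.6 and 241 to 69.0, 88.9 and 88.4 in WT and from 168, 185 and 202 to 268, 277 and 256 in Mfn2-/- libraries (difference 1.94, adjusted p = 6.33e-09).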
